A study of Homo sapiens with 12 samples.

Results

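The transcripts of 7 genes for immune checkpoint ligands, CD274, PDCD1LG2, CD276, PVR, NECTIN2, LGALS9 and CD47, were followed in HMEC-1 cells, a single line of human dermal microvascular endothelium immortalised with a viral oncogene. The genes were chosen by name and are 7 of the 60623 genes in the deposited table of TPM, a transcript level corrected for length and scaled to the sum of its library. All 7 reached the level required for a test, at least 1 TPM in at least 3 libraries, as did 16848 genes in all; LGALS9 did so through 3 of the 4 groups and stayed under 1 TPM in the CBP300 group. Cells of the PF9363 group received oncostatin M together with 30 µg/mL of PF9363, which the labels describe as an inhibitor of the acetyltransferases KAT6A and KAT6B. Cells of the CBP300 group received oncostatin M together with 10 µg/mL of CBP300, described as an inhibitor of the acetyltransferase EP300. The OSM group received oncostatin M alone and the CT group fresh complete medium. Each group had 3 libraries, taken after 48 h. The treatment protocol gives oncostatin M at 10 ng/mL and the entries of single samples at 10 µg/mL, so its dose is uncertain. All inhibitor-treated cells also received oncostatin M, no group received an inhibitor alone and no vehicle is named, so an inhibitor's own action on a gene and its action on the response to oncostatin M cannot be told apart.

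Checkpoint ligands are surface or secreted proteins that restrain lymphocytes or phagocytes by engaging inhibitory receptors on them. PD-L1 (CD274) and PD-L2 (PDCD1LG2) bind PD-1 on activated T cells, PVR and nectin-2 are shared by the inhibitory receptor TIGIT and the activating receptor CD226 of T and NK cells, galectin-9 (LGALS9) binds TIM-3, and CD47 binds SIRPα on macrophages. Endothelial cells display several of these ligands towards circulating leukocytes, and interferons acting through JAK kinases and IRF1 are the best known inducers of PD-L1. Oncostatin M belongs to the interleukin-6 cytokines and acts through the receptor chain gp130, JAK kinases and STAT3.

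Library depth, recovered as whole reads from the deposited values, was 15745023 to 16521589 reads in PF9363, 13418045 to 73297452 in CBP300, 15750110 to 20812985 in OSM and 16788373 to 19571673 in CT. PF9363 library 3 differed from the other 2 of its group by a mean of 0.46 and 0.39 on the log2 scale, against 0.25 between those 2, and CT library 1 by 0.58 and 0.48, against 0.22. Libraries also differed in how levels depended on the GC content of the transcript. The log2 level changed by -0.16 to 0.14 per 10 percentage points of GC in PF9363, by -0.38 to -0.32 in CBP300, by -0.12 to 0.00 in OSM and by 0.25 to 0.65 in CT. All 14 endothelial markers listed were above the test level, and their summed level was 1840 to 1929 TPM in PF9363, 1031 to 1093 TPM in CBP300, 2091 to 2222 TPM in OSM and 2026 to 2284 TPM in CT. In bulk RNA, fewer cells of a kind and less RNA per cell cannot be told apart. The labels do not say whether the 3 libraries of a group came from separate cultures, so p-values measure the spread between these libraries, which may be technical.

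On GRCh38, GENCODE release 29 places CD274 at chr9:5450503-5470566 and PDCD1LG2 at chr9:5510570-5571254, both on the plus strand with 40003 bases between them. CD276 lies at chr15:73683966-73714518, PVR at chr19:44643798-44663583, NECTIN2 at chr19:44846175-44889228 and LGALS9 at chr17:27629798-27649560, all on the plus strand, and CD47 at chr3:108043094-108091862 on the minus strand. Promoter sequence was read from RefSeq (GRCh38.p14) for 6 of the 7 genes, all except PDCD1LG2, in 7 windows of 250 bases before to 50 bases after the start. The windows of CD274 and LGALS9 are shown because they are the ones of the 7 with an interferon-response core, GAAA and GAAA with any 2 bases between, on either strand. Of 35116 RefSeq windows of this length, 3.57% hold that core. The window of CD47 is shown because this gene moved opposite to LGALS9 in both inhibitor groups. Each is printed 5′ to 3′ on the strand of the gene, with motif matches in capitals. The CD274 window lies at chr9:5450292-5450591 (plus strand), the LGALS9 window at chr17:27630938-27631237 (plus strand) and the CD47 window at chr3:108090982-108091281 (minus strand). The LGALS9 and CD47 windows lie inside the GENCODE genes, which begin further upstream.
CD274: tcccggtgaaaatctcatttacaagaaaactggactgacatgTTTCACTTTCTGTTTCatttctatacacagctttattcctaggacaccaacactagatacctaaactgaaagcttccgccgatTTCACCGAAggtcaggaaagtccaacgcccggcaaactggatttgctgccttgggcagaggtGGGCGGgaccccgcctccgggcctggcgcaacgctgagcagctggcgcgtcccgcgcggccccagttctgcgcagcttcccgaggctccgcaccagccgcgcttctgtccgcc
LGALS9: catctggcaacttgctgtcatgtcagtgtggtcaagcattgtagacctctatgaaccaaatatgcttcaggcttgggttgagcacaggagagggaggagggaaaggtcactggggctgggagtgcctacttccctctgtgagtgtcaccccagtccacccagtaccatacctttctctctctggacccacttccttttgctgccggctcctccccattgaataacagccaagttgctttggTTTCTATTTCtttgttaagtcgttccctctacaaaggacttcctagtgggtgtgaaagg
CD47: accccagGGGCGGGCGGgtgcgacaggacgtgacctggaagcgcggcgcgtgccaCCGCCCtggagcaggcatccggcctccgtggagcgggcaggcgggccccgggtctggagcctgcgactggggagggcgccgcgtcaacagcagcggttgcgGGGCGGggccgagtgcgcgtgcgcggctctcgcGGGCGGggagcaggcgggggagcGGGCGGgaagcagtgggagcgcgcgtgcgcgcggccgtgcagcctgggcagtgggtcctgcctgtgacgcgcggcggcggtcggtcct
The first capitals of the CD274 window are 2 overlapping cores on the minus strand, starting 208 and 202 bases before the start, followed by a STAT palindrome TTCNNNGAA at 125 bases (held by 7.66% of all windows) and a GC box GGGCGG at 63 bases (held by 45.0%). The LGALS9 window has 1 core, on the minus strand 9 bases before the start. The CD47 window has 6 GC boxes on both strands, 2 of them overlapping, and none of the other motifs. The CD276 windows have 7 and 2 GC boxes, the NECTIN2 window has 3 GC boxes and 1 CRE palindrome TGACGTCA (held by 1.85% of all windows), and the PVR window has none of the 4 motifs. These matches are letters in the windows and were not measured as bound sites.

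**Figure D1:**
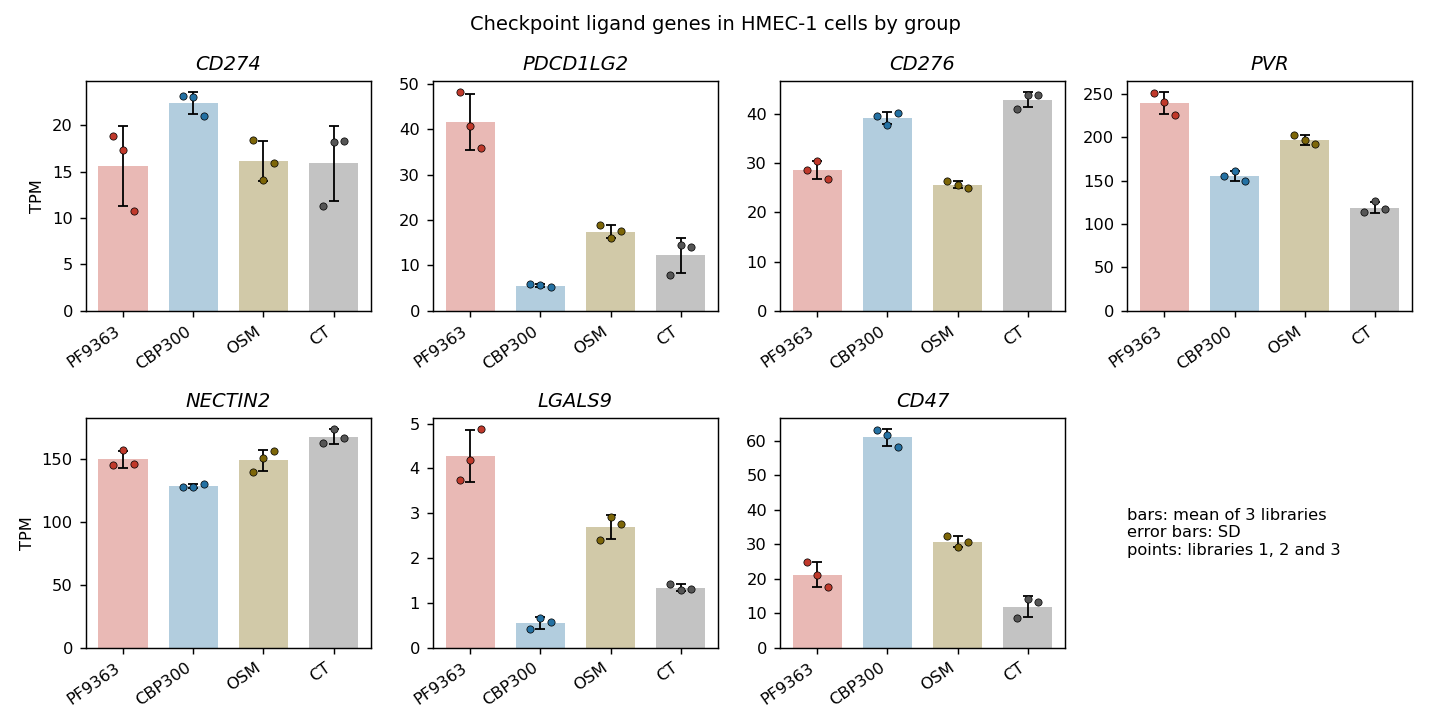
TPM of the 7 genes in each library of the PF9363, CBP300, OSM and CT groups (bars, mean of 3 libraries; error bars, SD; points, single libraries); each panel has its own linear axis from 0. PDCD1LG2 and LGALS9 were highest in PF9363 and lowest in CBP300, CD47 was highest in CBP300, and CD274 had no called difference.

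CD274, which encodes PD-L1, had 0 of 6 comparisons called by limma at an adjusted p under 0.05. At an unadjusted p under 0.05 it had 2, PF9363 against CBP300 and CBP300 against CT, and limma-voom on the recovered reads called 0 (adjusted p 0.118 to 0.95). Its levels were 18.8, 17.3 and 10.7 TPM in the PF9363 libraries, 23.2, 23.0 and 21.0 TPM in the CBP300 libraries, 18.4, 14.1 and 15.9 TPM in the OSM libraries and 11.3, 18.2 and 18.3 TPM in the CT libraries. The low values of PF9363 and CT were those of library 3 and library 1, the libraries that stood apart, and the CBP300 libraries were above all others on the deposited scale. The group means were 15.6 ± 4.3 TPM in PF9363, 22.4 ± 1.2 TPM in CBP300, 16.2 ± 2.2 TPM in OSM and 15.9 ± 4.0 TPM in CT (SD, n = 3 each). On the log2(TPM + 1) scale used for all tests, CD274 differed between CBP300 and OSM by 0.45 (95% interval -0.04 to 0.95, adjusted p = 0.144), between PF9363 and OSM by -0.07 (-0.56 to 0.42, adjusted p = 0.81) and between OSM and CT by 0.04 (-0.45 to 0.53, adjusted p = 0.882). Without PF9363 library 3 and CT library 1, which narrows the estimated spread, the CBP300 difference from OSM had an adjusted p of 0.00227, and the sign of the other 2 differences turned, to 0.16 and -0.17. With the trend on GC content and length removed, CD274 was lower in OSM than in CT by 0.39 on the log2 scale (-0.39, adjusted p = 0.0341) and lower in PF9363 than in CT by 0.46 (-0.46, adjusted p = 0.0156), against a difference of -0.03 (adjusted p = 0.918) on the deposited scale. With it removed, CBP300 differed from OSM by 0.18 (adjusted p = 0.373) and from CT by -0.22 (adjusted p = 0.189). The CBP300 libraries then lay below all CT libraries, so their place above all others depends on this setting.

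PDCD1LG2, which encodes PD-L2 and lies downstream of CD274 on chromosome 9, was highest in PF9363 and lowest in CBP300. It was 48.2, 40.7 and 35.9 TPM in the PF9363 libraries, 5.83, 5.65 and 5.21 TPM in the CBP300 libraries, 18.9, 16.0 and 17.5 TPM in the OSM libraries and 7.84, 14.6 and 14.1 TPM in the CT libraries. No groups overlapped, and the lowest PF9363 library stood well above the highest OSM library. PDCD1LG2 rose in PF9363 relative to OSM by 1.20 ± 0.20 on the log2 scale (SE, adjusted p = 0.000634), 2.38-fold in mean TPM. It fell in CBP300 relative to OSM by 1.49 ± 0.20 (adjusted p = 0.000513), to 0.318 times the OSM mean. The CBP300 libraries were also below CT, by a log2 change of -0.96 (adjusted p = 0.00142), and the PF9363 libraries above CT, by 1.73 (adjusted p = 4.29e-05). All 4 of these calls were kept under every alternative run. The difference between OSM and CT was 0.53 (adjusted p = 0.0433), and this call was lost with median-of-ratios scaling (0.16, adjusted p = 0.258) and turned sign with quantile scaling (-0.04, adjusted p = 0.753). Without CT library 1, whose 7.84 TPM was the lowest CT value, it was 0.26 (adjusted p = 0.102), and without any 1 of the OSM libraries the call was lost as well (0.47 to 0.59, adjusted p 0.0619 to 0.121).

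A ratio within each library compares the 2 ligands of PD-1 free of any scaling between libraries. The ratio of PDCD1LG2 to CD274 in TPM was 2.56, 2.35 and 3.35 in the PF9363 libraries, 0.252, 0.245 and 0.247 in the CBP300 libraries, 1.02, 1.13 and 1.10 in the OSM libraries and 0.697, 0.804 and 0.771 in the CT libraries. PF9363 cells had more PDCD1LG2 than CD274, CBP300 cells less, and OSM cells near-equal amounts, without overlap between any of the groups. The mean log2 ratio differed by 1.33 between PF9363 and OSM, by -2.13 between CBP300 and OSM and by 0.52 between OSM and CT. Each had an exact two-sided permutation p of 0.1, the smallest that 3 libraries against 3 allow. With the trend on GC content and length removed, these differences were 1.22, -1.79 and 0.80. The ratio was chosen after the levels of both genes had been seen.

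**Figure D2:**
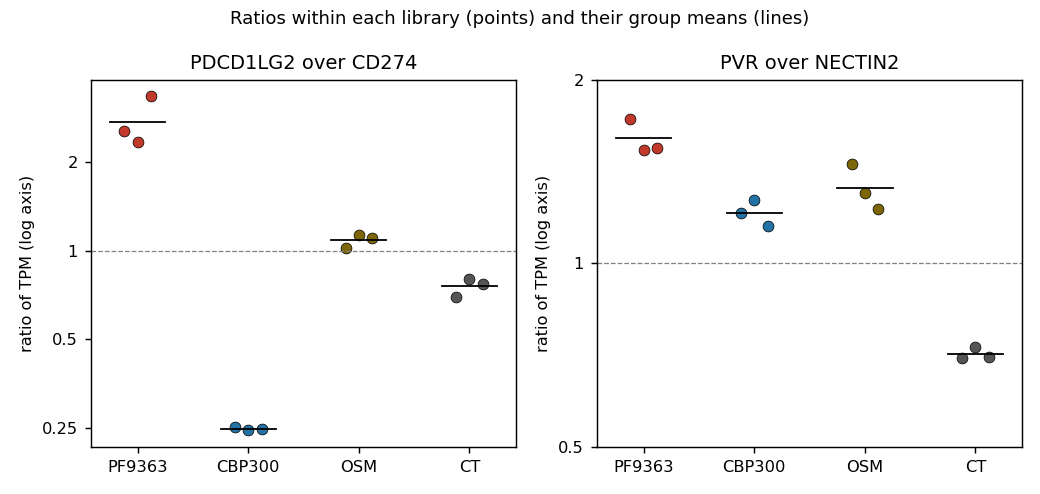
TPM ratios within each library (points) and group means (lines) on log axes for PDCD1LG2 over CD274 and PVR over NECTIN2, in PF9363, CBP300, OSM and CT. The PDCD1LG2 to CD274 ratio was about 0.25 in all CBP300 libraries and above 2 in all PF9363 libraries, and the PVR to NECTIN2 ratio was below 1 in CT only.

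Of 10 genes listed as neighbours of the pair, 5 were tested, and no neighbour had the calls of PDCD1LG2, higher in PF9363 and lower in CBP300 than in OSM. PLGRKT, a plasminogen receptor next to CD274, rose in both inhibitor groups relative to OSM, with levels of 19.4 ± 1.1 TPM in PF9363, 15.8 ± 0.68 TPM in CBP300 and 9.77 ± 0.84 TPM in OSM (SD, n = 3 each; log2 changes 0.92 and 0.64, adjusted p = 0.000275 and 0.00683). ERMP1, an endoplasmic reticulum metallopeptidase, fell in PF9363 relative to OSM by 0.97 (adjusted p = 0.0174). JAK2, RIC1 and KIAA2026 did not pass the test in either inhibitor comparison with OSM. With the GC and length trend removed, JAK2 was called higher in PF9363 than in OSM (0.54, adjusted p = 0.0396) and KIAA2026 lower (-0.61, adjusted p = 0.0296). Between OSM and CT, JAK2, RIC1, ERMP1 and KIAA2026 rose by 1.41 to 1.56 and PLGRKT differed by 0.08 (adjusted p = 0.614). The rises were smaller with the GC and length trend removed, 0.72 to 1.00, and stayed called. JAK2 encodes the kinase through which interferon-gamma reaches the CD274 promoter, and stood at 9.94 ± 3.4 TPM in PF9363, 11.2 ± 0.39 TPM in CBP300, 6.60 ± 0.53 TPM in OSM and 1.93 ± 1.4 TPM in CT.

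**Figure D3:**
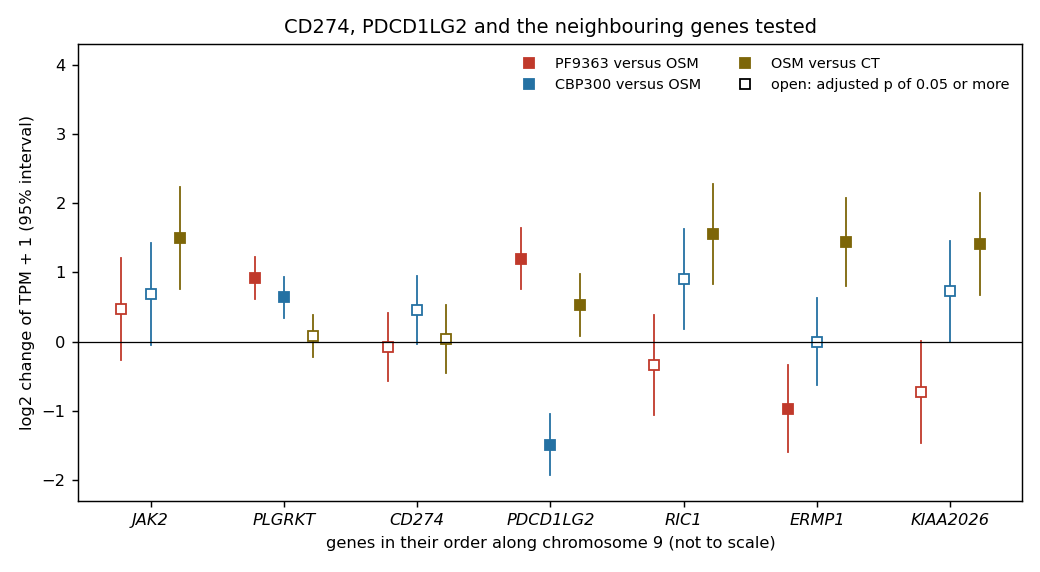
log2 changes (squares) with 95% intervals (lines) of CD274, PDCD1LG2 and 5 neighbouring genes, in their order along chromosome 9, for PF9363 against OSM, CBP300 against OSM and OSM against CT; open squares have an adjusted p of 0.05 or more. PDCD1LG2 is the only gene shown with a called rise in PF9363 and a called fall in CBP300.

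CD276, which encodes B7-H3, a ligand of the B7 family whose T cell receptor is not settled, was lower in OSM than in CT and higher in CBP300 than in OSM. Its levels were 28.5, 30.4 and 26.7 TPM in the PF9363 libraries, 39.6, 37.7 and 40.2 TPM in the CBP300 libraries, 26.4, 25.6 and 25.0 TPM in the OSM libraries and 41.1, 43.8 and 43.8 TPM in the CT libraries. No groups overlapped, and on the deposited scale the CBP300 libraries came closest to CT. Their log2 difference from CT was -0.13 (adjusted p = 0.16). It was called lower with median-of-ratios scaling (-0.61, adjusted p = 0.000297) and higher with the GC and length trend removed (0.45, adjusted p = 0.00636). CD276 fell in OSM relative to CT by 0.72 ± 0.08 on the log2 scale (SE, adjusted p = 0.000162). It rose in CBP300 relative to OSM by 0.59 ± 0.08 (adjusted p = 0.00045). With the GC and length trend removed, the fall was smaller (-0.39, adjusted p = 0.0189) and the rise larger (0.85, adjusted p = 0.000671). The PF9363 libraries differed from OSM by 0.15 (95% interval -0.02 to 0.32, adjusted p = 0.145), and scaling by median of ratios made this a call (0.50, adjusted p = 0.00198). Between PF9363 and CBP300, the log2 difference of -0.44 (adjusted p = 0.000676) went to 0.01 with median-of-ratios and 0.03 with quantile scaling.

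PVR, the poliovirus receptor and the main ligand of TIGIT, was the highest of the 7 in PF9363, CBP300 and OSM, and rose in OSM relative to CT. It stood at 251, 241 and 226 TPM in the PF9363 libraries, 155, 161 and 149 TPM in the CBP300 libraries, 203, 196 and 192 TPM in the OSM libraries and 113, 127 and 117 TPM in the CT libraries. No groups overlapped, and PF9363 was highest and CT lowest. The rise in OSM relative to CT was 0.72 ± 0.07 on the log2 scale (SE, adjusted p = 0.000108), 1.66-fold, and was kept under every alternative run. PVR rose further in PF9363, by 0.28 ± 0.07 relative to OSM (adjusted p = 0.00937), and fell in CBP300 relative to OSM by 0.34 ± 0.07 (adjusted p = 0.00707). Both of these smaller changes missed the threshold once the GC and length trend was removed (0.26, adjusted p = 0.065, and -0.16, adjusted p = 0.304). CBP300 stayed above CT by 0.38 (adjusted p = 0.000859), which turned to -0.11 (adjusted p = 0.311) with median-of-ratios scaling. CEACAM19 overlaps PVR on the same strand and was listed at 11.3 to 18.1 TPM, so reads could be shared. Antisense genes annotated opposite PVR and NECTIN2 were not used here.

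NECTIN2, the second ligand of TIGIT in the set and also a ligand of the inhibitory receptor PVRIG, was the highest of the 7 in CT and second to PVR elsewhere, and its groups lay close together. It was 146, 157 and 146 TPM in the PF9363 libraries, 128, 127 and 130 TPM in the CBP300 libraries, 140, 151 and 156 TPM in the OSM libraries and 162, 174 and 167 TPM in the CT libraries. CT was highest and CBP300 lowest, and PF9363 and OSM overlapped. NECTIN2 fell in CBP300 relative to OSM by 0.21 ± 0.07 (SE, adjusted p = 0.0468), a call that 8 alternatives ended and that turned to 0.12 (adjusted p = 0.511) with the GC and length trend removed. In CBP300 relative to CT it was lower by 0.38 on the log2 scale (-0.38, adjusted p = 0.000637), and with that trend removed higher (0.45, adjusted p = 0.00802). The difference between OSM and CT was -0.17 (adjusted p = 0.056) and turned to 0.33 (adjusted p = 0.0434) with the trend removed, so the direction of NECTIN2 depends on this setting. PF9363 and OSM differed by 0.01 (95% interval -0.15 to 0.16), and NECTIN2 was called higher in PF9363 with median-of-ratios scaling (0.37, adjusted p = 0.0231).

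The balance of the 2 TIGIT ligands followed PVR. The ratio of PVR to NECTIN2 was 1.73, 1.53 and 1.55 in the PF9363 libraries, 1.21, 1.27 and 1.15 in the CBP300 libraries, 1.45, 1.303 and 1.23 in the OSM libraries and 0.698, 0.728 and 0.701 in the CT libraries. NECTIN2 exceeded PVR in the CT libraries, and PVR exceeded NECTIN2 in all other libraries. The mean log2 ratio differed by 0.27 between PF9363 and OSM and by 0.90 between OSM and CT, each with an exact two-sided permutation p of 0.1, the smallest possible. CBP300 and OSM overlapped and differed by -0.13 (exact permutation p = 0.2). With the trend on GC content and length removed, the difference was 0.33 between PF9363 and OSM, 0.64 between OSM and CT and -0.28 between CBP300 and OSM.

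LGALS9, which encodes the secreted lectin galectin-9, was the lowest of the 7 and followed the same order of groups as PDCD1LG2. It was 3.74, 4.18 and 4.88 TPM in the PF9363 libraries, 0.403, 0.660 and 0.578 TPM in the CBP300 libraries, 2.40, 2.92 and 2.76 TPM in the OSM libraries and 1.42, 1.28 and 1.31 TPM in the CT libraries. No groups overlapped. The CBP300 values rest on 13, 73 and 12 reads, the first with a 95% Poisson interval of 6.92 to 22.2 reads, which covers counting error only. LGALS9 rose in PF9363 relative to OSM by 0.51 ± 0.12 on the log2(TPM + 1) scale (SE, adjusted p = 0.00678) and fell in CBP300 relative to OSM by 1.26 ± 0.12 (adjusted p = 6.70e-05). At such low levels the added 1 TPM understates the change: the mean TPM was 1.58-fold higher in PF9363 than in OSM and 0.203 times the OSM mean in CBP300, and a count model on the recovered reads gave -2.33 for the CBP300 difference. OSM was above CT by 0.66 ± 0.12 (adjusted p = 0.0026), a call lost with median-of-ratios scaling (0.40, adjusted p = 0.0592) and with quantile scaling (0.34, adjusted p = 0.127). CBP300 was below CT by a log2 change of -0.60 (adjusted p = 0.00148), a call lost with the GC and length trend removed (-0.22, adjusted p = 0.0874). The near-identical copies LGALS9B and LGALS9C were listed at 0 in all libraries except for one value of 0.0764 and one of 0.0799 TPM in PF9363, and reads could be split between copies.

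CD47, the signal that keeps macrophages from engulfing a cell, rose in OSM relative to CT and was highest in CBP300. It was 24.8, 21.1 and 17.6 TPM in the PF9363 libraries, 63.0, 61.8 and 58.2 TPM in the CBP300 libraries, 32.3, 29.0 and 30.7 TPM in the OSM libraries and 8.54, 14.0 and 13.1 TPM in the CT libraries. The groups did not overlap. The CBP300 libraries held about 2-fold the OSM level (1.99-fold) and 5.13-fold the CT level. CD47 rose in OSM relative to CT by 1.32 ± 0.17 on the log2 scale (SE, adjusted p = 0.000472) and in CBP300 relative to OSM by 0.97 ± 0.17 (adjusted p = 0.00245). CD47 had the lowest GC content of the 7, 38.4% (9.85th percentile of the genes tested), and the sizes of its changes moved with the GC trend: with it removed, the changes were 0.49 (adjusted p = 0.000583) and 0.50 (adjusted p = 0.000468). Both stayed called under every alternative run. The fall in PF9363 relative to OSM, by 0.53 (adjusted p = 0.0263), was lost under 7 alternatives, among them median-of-ratios scaling (-0.17, adjusted p = 0.141) and omission of PF9363 library 3 (-0.41, adjusted p = 0.0936). With the GC and length trend removed, this fall stayed called (-0.41, adjusted p = 0.00047). CD47 stood above CT in PF9363 by 0.80 (adjusted p = 0.00258), which became 0.08 (adjusted p = 0.323) with the GC trend removed.

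**Figure D4:**
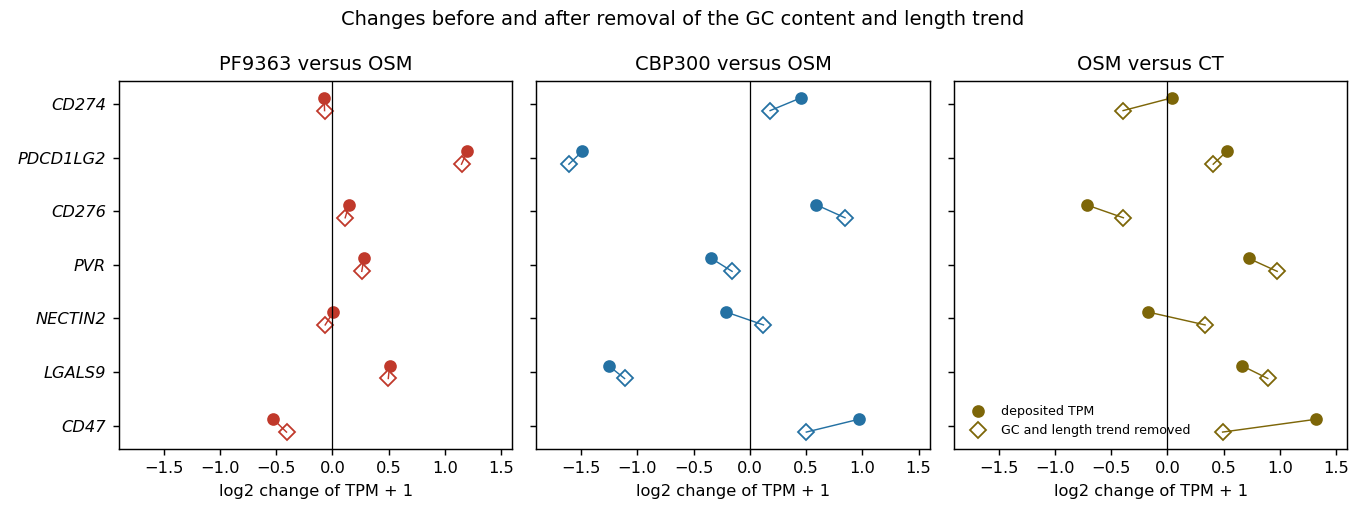
log2 changes of the 7 genes from the deposited TPM (filled circles) and after removal of the trend on GC content and transcript length from each library (open diamonds), for PF9363 against OSM, CBP300 against OSM and OSM against CT. CD47 moved most, from 1.32 to 0.49 in OSM against CT, and the changes of PDCD1LG2 in both inhibitor groups moved little.

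Counted over the set, the responses went in both directions. In PF9363 relative to OSM, 3 of the 7 rose (PDCD1LG2, LGALS9 and PVR) and CD47 fell, where 11.3% of all genes tested were called higher and 35.6% lower. These 4 calls of 7 stand beside 46.9% of all genes, and 5 of the 7 had no overlap between the groups, beside 59.9% of all genes. In CBP300 relative to OSM, CD47 and CD276 rose and 4 fell (PDCD1LG2, LGALS9, PVR and NECTIN2), where 13.8% of all genes were called higher and 13.3% lower. These 6 calls stand beside 27.1% of all genes, and none of the 7 overlapped, beside 66.5% of all genes without overlap. The share over all genes depends on the fit: 6300 genes were called higher and 3770 lower with only the 2 groups in it, where the fit over all 4 groups gave 2327 and 2238, and 6090 and 3686 without PF9363 library 3 and CT library 1. In OSM relative to CT, CD47, PVR, LGALS9 and PDCD1LG2 rose and CD276 fell, where 42.1% of all genes were called higher and 15.2% lower. These 5 calls stand beside 57.2% of all genes, and 6 of the 7 had no overlap, beside 67.4% of all genes. The OSM libraries enter all of these comparisons and therefore link them. The median log2 change of the 7 was 0.15 in PF9363 against OSM, -0.21 in CBP300 against OSM and 0.53 in OSM against CT, beside medians over all genes tested of -0.31, 0.11 and 0.31. Median-of-ratios scaling brought the medians over all genes to -0.01, 0.02 and 0.00, and with that scaling the PF9363 difference from OSM was -0.17 for CD47 and 0.50 for CD276. It also moved the balance of calls over all genes, to 3711 higher and 3772 lower in PF9363 against OSM, where the deposited scale gave 1901 and 5993. In OSM against CT it gave 5031 higher and 4696 lower, where the deposited scale gave 7087 and 2553. Without PF9363 library 3 and CT library 1, left out after the data had been seen, the counts of risen and fallen genes of the 7 were 4 and 1 in PF9363 against OSM, 3 and 4 in CBP300 against OSM, and 4 and 2 in OSM against CT. Calls over all genes also grew in that fit, to 2913 higher and 7207 lower in PF9363 against OSM. In OSM against CT it called 6992 higher and 2840 lower.

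**Figure D5:**
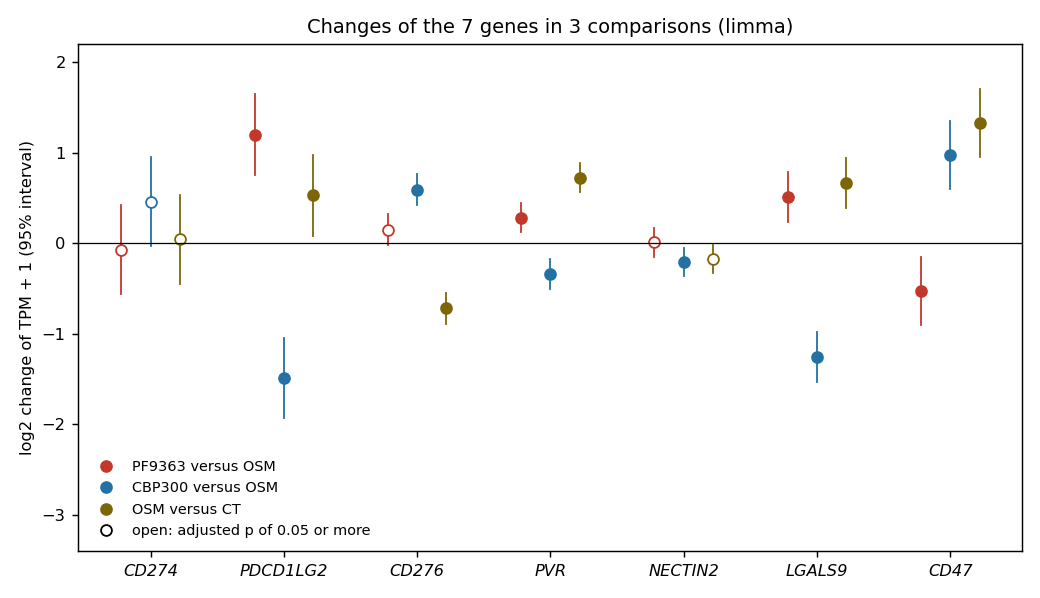
log2 changes (circles) with 95% intervals (lines) of the 7 genes in PF9363 against OSM, CBP300 against OSM and OSM against CT; open circles have an adjusted p of 0.05 or more. PDCD1LG2 and LGALS9 lie above 0 in PF9363 and below 0 in CBP300, CD47 the other way round, and CD274 is open in all 3.

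Set directly against each other, the inhibitors, which were given at different doses, left PF9363 cells higher than CBP300 cells for PDCD1LG2 by 2.69 (adjusted p = 2.29e-06), for LGALS9 by 1.77 (adjusted p = 1.68e-06), for PVR by 0.62 (adjusted p = 4.77e-05) and for NECTIN2 by 0.22 (adjusted p = 0.02). CD47 was lower in PF9363 than in CBP300, with a log2 change of -1.50 (adjusted p = 3.80e-05), as was CD276. The NECTIN2 difference turned to -0.18 (adjusted p = 0.224) with the GC trend removed. In this comparison 14.5% of all genes were called higher and 45.1% lower, 59.6% in all, against 6 of the 7, and 71.1% of all genes had no overlap between the groups, against 7 of the 7. Median-of-ratios scaling gave 4398 genes higher and 4705 lower here, where the deposited scale gave 2450 and 7592. PDCD1LG2 and LGALS9 lay at the 99.6th and 98.2th percentiles of all log2 changes and CD47 at the 7.42th. Against CT, 4 of the 7 were higher and CD276 lower in PF9363, beside 27.9% and 28.4% of all genes (5 called, 56.3% of all genes). The CD276 call (-0.57, adjusted p = 0.000133) was lost with the GC and length trend removed (-0.28, adjusted p = 0.0688). In that comparison 6 had no overlap, beside 53.4% of all genes. In CBP300 against CT, 2 were higher and 3 lower, beside 48.1% and 22.7% of all genes (5 called, 70.8% of all genes), and 7 had no overlap, beside 76.0% of all genes. Median-of-ratios scaling moved the call counts over all genes in CBP300 against CT to 6044 higher and 5943 lower, where the deposited scale gave 8099 and 3825. The summed level of the 7 genes was 500 ± 28 TPM in PF9363, 412 ± 6.8 TPM in CBP300, 439 ± 3.1 TPM in OSM and 371 ± 23 TPM in CT (SD, n = 3 each). PVR and NECTIN2 made up most of the sum: PVR was 47.9% of it in PF9363, 37.6% in CBP300, 44.9% in OSM and 32.1% in CT, and CD47 4.21%, 14.8%, 6.99% and 3.18% in the same order.

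Other ligands of the B7 and butyrophilin families were described from a list of 13 genes, of which 7 were tested. In PF9363 relative to OSM, VSIR, which encodes the inhibitory ligand VISTA, rose by 0.79 (adjusted p = 3.47e-05), and BTN2A2, BTN3A1 and BTN3A2, butyrophilins that act on T cells, fell by 1.77, 1.48 and 0.63 on the log2 scale. In CBP300 relative to OSM, NCR3LG1, the B7-H6 ligand of the activating NK receptor NKp30, rose to 15.5 ± 2.1 TPM, against 3.87 ± 0.98 TPM in OSM (log2 change 1.77, adjusted p = 0.00325), and BTN3A2 fell by 0.62. In OSM relative to CT, 6 of the 7 rose and VSIR fell by 1.44 on the log2 scale (adjusted p = 3.58e-06), where 42.1% of all genes tested were called higher and 15.2% lower. The median log2 change of the 7 in that comparison was 0.68, beside 0.31 over all genes; in PF9363 against OSM it was -0.60, beside -0.31. CD80 and CD86, the ligands of CTLA-4 and CD28, were under the test level, with group means of at most 0.0794 TPM.

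Among 10 ligands and receptors of the TNF superfamily, 7 were tested, with 3 higher and 1 lower in PF9363 relative to OSM, and 3 lower in CBP300 relative to OSM. Over all genes tested, 11.3% were called higher and 35.6% lower in PF9363 relative to OSM, and 13.3% lower in CBP300. The median log2 change of the 7 was 0.48 in PF9363 and -0.62 in CBP300, beside -0.31 and 0.11 over all genes. CD40, the receptor through which T cells activate endothelium, was 17.6 ± 3.7 TPM in PF9363 and 2.39 ± 0.0385 TPM in OSM (log2 change 2.44, adjusted p = 4.09e-07). TNFSF9, the 4-1BB ligand that costimulates T cells, was 16.8 ± 1.7 TPM in PF9363 and 2.79 ± 0.80 TPM in OSM (2.25, adjusted p = 7.5e-06). TNFRSF14, the ligand of the inhibitory receptor BTLA, fell in both inhibitor groups relative to OSM, by 1.03 in PF9363 and by 1.33 in CBP300. TNFSF10, the death ligand TRAIL, fell in CBP300 by 2.05 relative to OSM, to 5.62 ± 0.33 TPM in CBP300 against 26.5 ± 0.44 TPM in OSM.

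Of 19 further inhibitory ligands and enzymes, 13 were tested, with 4 up and 2 down in PF9363 relative to OSM, 2 up and 4 down in CBP300 relative to OSM, and 4 up and 4 down in OSM relative to CT. The shares of all genes called higher and lower were 11.3% and 35.6%, 13.8% and 13.3%, and 42.1% and 15.2% in the same comparisons. The median log2 changes of the 13 were 0.13, -0.16 and 0.10, beside -0.31, 0.11 and 0.31 over all genes. With the GC and length trend removed, the counts up and down were 4 and 3, 2 and 2, and 5 and 4 in the same order. Over all genes, that setting gave 1970 and 6692, 2615 and 1600, and 7750 and 1439. HLA-E, the ligand of the inhibitory NK receptor NKG2A, rose in PF9363 to 1268 ± 38 TPM, against 625 ± 15 TPM in OSM (1.02, adjusted p = 4.19e-07). CEACAM1, reported as a further ligand of TIM-3, had 152 ± 6.3 TPM in OSM and 11.2 ± 3.0 TPM in CT (3.68, adjusted p = 1.84e-06), and fell in CBP300 relative to OSM by 2.50 (adjusted p = 1.78e-05), to 25.9 ± 1.2 TPM. THBS1, thrombospondin-1, a ligand of CD47, was 238 ± 17 TPM in CBP300 and 856 ± 69 TPM in OSM (-1.84, adjusted p = 0.0143). Of 15 receptors that leukocytes use to read these ligands, 2 were tested: SIRPA, the receptor of CD47, fell in CBP300 relative to OSM by 0.86 (adjusted p = 0.000753), and LAG3, an inhibitory receptor of T cells, rose relative to OSM by 1.72 in PF9363 (adjusted p = 1.05e-05) and by 0.57 in CBP300 (adjusted p = 0.023).

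Genes of the route from interferon receptors to CD274 were all tested (14 of 14). In PF9363 relative to OSM, 1 rose and 3 fell: IRF1, the transcription factor at the CD274 promoter, was 46.8 ± 1.7 TPM in PF9363 and 27.4 ± 0.96 TPM in OSM (0.75, adjusted p = 3.15e-05), while TYK2, IFNGR2 and STAT2 fell by 0.93, 0.76 and 0.39. In CBP300 relative to OSM, IFNAR1 and STAT3 rose by 0.56 and 0.45. IRF1 had 27.4 ± 1.4 TPM in CBP300 and 27.4 ± 0.96 TPM in OSM. In OSM relative to CT, 11 of the 14 rose, where 42.1% of all genes were called higher, and their median log2 change was 0.77, beside 0.31 over all genes. Of 12 other transcriptional regulators of CD274, 11 rose in OSM relative to CT, the most HIF1A (3.46, adjusted p = 0.00106), and 1 in each inhibitor group relative to OSM, RELA in PF9363 and FOS in CBP300. The RELA call was lost with the GC and length trend removed (0.21, adjusted p = 0.0819). The shares of all genes called higher were 42.1% in OSM relative to CT, 11.3% in PF9363 relative to OSM and 13.8% in CBP300 relative to OSM, and the median log2 change of the 12 in OSM relative to CT was 1.27. EP300, the enzyme named as the target of CBP300, was 52.3 ± 4.9 TPM in CBP300 and 29.4 ± 3.5 TPM in OSM (0.81, adjusted p = 0.131). Of 18 genes whose products stabilise, modify or shed PD-L1 or CD47 protein, 1 rose and 5 fell in PF9363 relative to OSM, and 3 rose and 3 fell in CBP300 relative to OSM. Over all genes, 11.3% were called higher and 35.6% lower in PF9363, and 13.8% and 13.3% in CBP300. The median log2 change of the 18 was -0.23 in PF9363 and 0.22 in CBP300, beside -0.31 and 0.11 over all genes. With the GC and length trend removed, 0 of the 18 rose and 8 fell in PF9363, and 3 rose and 0 fell in CBP300. Of the 14 interferon genes, 3 rose and 3 fell in PF9363 with that trend removed. Over all genes, that setting called 1970 higher and 6692 lower in PF9363, and 2615 and 1600 in CBP300, each relative to OSM. CMTM6, which keeps PD-L1 at the surface, differed from OSM by 0.25 (adjusted p = 0.616) in PF9363 and by 0.52 (adjusted p = 0.303) in CBP300. Protein was not measured.

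Markers of other cell types moved with the inhibitors, and their part in the changes of the checkpoint genes was not tested. Of 14 endothelial markers, 1 rose and 3 fell in PF9363 relative to OSM, and 1 rose and 9 fell in CBP300 relative to OSM, with VWF at 0.826 ± 0.11 TPM in CBP300 and 12.9 ± 0.30 TPM in OSM. Over all genes, 11.3% were called higher and 35.6% lower in PF9363, and 13.8% and 13.3% in CBP300. The median log2 change of the 14 was -0.11 in PF9363 and -0.63 in CBP300, beside -0.31 and 0.11 over all genes. The summed level of 15 leukocyte markers was 46.9 to 62.3 TPM in PF9363, 16.5 to 18.5 TPM in CBP300, 13.8 to 16.8 TPM in OSM and 3.97 to 5.24 TPM in CT. CD14 was the one leukocyte marker that reached the test level, at 50.3 ± 8.2 TPM in PF9363 and 14.7 ± 1.7 TPM in OSM, and SPI1, CD3E, CD2 and MS4A1 were at 0 in at least 2 of the groups. The group means of PTPRC, which marks all leukocytes, were at most 0.0425 TPM. The summed level of 8 epithelial markers was 2688 to 3872 TPM in PF9363, 528 to 537 TPM in CBP300, 770 to 838 TPM in OSM and 796 to 1083 TPM in CT, nearly all of it KRT18, with CDH1 at 0 in CBP300, OSM and CT and GRHL2 at 0 throughout. The summed level of 9 fibroblast and mural markers was 64.8 to 87.0 TPM in PF9363, 27.2 to 31.1 TPM in CBP300, 65.2 to 69.6 TPM in OSM and 109.8 to 142 TPM in CT.

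The genes whose pattern over the 12 libraries was most like that of each member were taken from 10562 genes with a mean of at least 5 TPM, by Pearson's correlation of log2(TPM + 1). Since the 12 libraries form 4 groups, such a correlation is mostly one of 4 group means, and it is given as a description. The nearest to PDCD1LG2 were SERPINH1, SHANK3 and ADCY4 (r = 0.98 for each), and the nearest to LGALS9 were MAPK11 (0.99), OAF (0.99) and RAB3IL1 (0.98). SERPINH1, a chaperone of collagen, stood at 517 TPM in PF9363, 162 TPM in CBP300, 351 TPM in OSM and 234 TPM in CT. The nearest to CD47 were ZNF33A, TRMT10A and NRCAM (0.99 each), to PVR SERPINB4 (0.99), CTSB and FAM107A (0.98 each), and to CD276 EZR (0.99), SPPL3 (0.94) and HABP4 (0.91). NECTIN2 was most like PXDC1, JAG2 and RAB1B (0.96 to 0.98). The nearest to CD274 were KANK2 (0.95), BACE1 and EFL1 (0.93 each), and of the 7 first-ranked genes KANK2 had the lowest correlation.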

How the data were processed

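Messenger RNA was sequenced from 12 HMEC-1 libraries in 4 groups of 3, assigned from the sample labels. The authors deposited 1 table of TPM per gene. The tools Bowtie2, RSEM 1.3.3 and Trimmomatic 0.40 and the build GRCh38 were used, per the submitters' processing notes. Their roles, the annotation and the length of each gene are not given in the sources used here. TPM is relative to the library's sum, so a change in a few abundant genes moves all others. The PF9363 columns fell short of the common sum by 397, 430 and 178 TPM. Low values were whole multiples of 1 read: whole reads within a tolerance of 0.001 were recovered for 16843 of 16848 genes tested (99.97%), which gave the depths.

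Genes that reached 1 TPM in 3 or more libraries, 16848 in all, were compared on log2(TPM + 1) with limma 3.58.1 in R 4.3.3 (empirical Bayes with a trend, 1 mean per group, all 12 libraries in 1 fit). The p-values of each of 6 comparisons were adjusted over all genes by the Benjamini-Hochberg method and called under 0.05. The fit was also run on simulated data. These had no GC trend and no library that stood apart, so the run does not cover these features of the data. Alternatives were a pseudocount of 0.1 or 5 TPM, no filter or one of 5 TPM, quantile or median-of-ratios scaling, omission of mitochondrial genes, a replicate block, the 2 compared groups alone, each library left out, voom on the recovered reads, and removal from each library of a spline trend (4 df) on GC content and length from GENCODE release 29. The joint omission of CT library 1 and PF9363 library 3 was chosen after seeing the data. The 7 genes and all lists were chosen with earlier results of these data known. All 7 genes are named in every comparison. Of each list, up to 4 called genes with the largest change per comparison could be named, or else up to 2 of the best expressed, and JAK2, IRF1, PLGRKT, RIC1, CMTM6, LGALS9B and LGALS9C in any case. EP300 in CBP300, CD80 and CD86, and of the marker lists PTPRC, SPI1, CD3E, CD2, MS4A1, CDH1 and GRHL2, were named in addition after their values were seen. A gene allowed by this rule is not reported here. Tables and figures were made with Python 3.11.15, pandas 2.3.3, numpy 2.4.6, scipy 1.17.1 and matplotlib 3.10.9.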

Additional observations from a re-analysis of the deposited data

How the results depend on the processing

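Of 42 pairs of a gene and a comparison, 31 were called, and 18 of these calls were kept under every alternative run. A call turned sign under some alternative for 6 pairs, and 9 of the 11 uncalled pairs were called under some alternative. The cause of a change was not tested unless its construction shows it. The larger moves in the counts of called genes were as follows, and smaller moves are not all listed. In OSM against CT, the 4 higher genes became 2 with median-of-ratios or quantile scaling. PDCD1LG2 was also lost from them with no filter, the replicate block, only the 2 groups in the fit, voom, and without CT library 1 or any 1 OSM library, and NECTIN2 joined them with the GC content and length trend removed. The 1 lower gene became 2 with a filter of 5 TPM, median-of-ratios or quantile scaling, the GC content and length trend removed, voom, or CT library 1 and PF9363 library 3 left out (with or without that trend), and was 1 to 2 with single libraries left out, 2 without CT library 1. In PF9363 against OSM, the 3 higher genes became 5 with median-of-ratios or quantile scaling, and the 1 lower gene, CD47, became 0 with either scaling and with the replicate block. It was 0 to 1 with single libraries left out, and lost without OSM library 1, OSM library 3, PF9363 library 2 or PF9363 library 3. In CBP300 against OSM, the 4 lower genes became 2 with the GC trend removed, with or without those 2 libraries. NECTIN2 was lost from the 4 under 8 other alternatives. CD274 joined the higher genes with only the 2 groups in the fit, and without CT library 1 and PF9363 library 3. In PF9363 against CBP300, the 2 lower genes became 1 with either scaling. CD274 joined the lower genes without PF9363 library 1, and without CT library 1 and PF9363 library 3. NECTIN2 was lost from the higher genes with the GC trend removed, and without PF9363 library 2, CBP300 library 1 or CBP300 library 2. In PF9363 against CT, the 1 lower gene became 2 with voom, without the 2 libraries and with the GC trend also removed, and was 1 to 2 with single libraries left out. With the GC trend removed and all libraries kept, the 1 lower gene was CD274 in place of CD276. In CBP300 against CT, the 2 higher genes became 1 with median-of-ratios scaling or voom and 4 with the GC trend removed, with or without the 2 libraries, and the 3 lower became 1 with the GC trend removed.

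The log2 changes that turned sign were mostly those of CD274 and NECTIN2. CD274 in OSM against CT (0.04) became -0.33 with median-of-ratios scaling, -0.50 with quantile scaling, -0.39 with the GC trend removed, -0.20 with voom, -0.17 without the 2 libraries and -0.46 with the GC trend also removed, and ranged between -0.17 and 0.15 with single libraries left out. In PF9363 against OSM (-0.07) it became 0.27, 0.35, 0.017 with voom, 0.16 without the 2 libraries and 0.0936 with the GC trend also removed, and ranged between -0.22 and 0.16 with single libraries left out. In PF9363 against CT (-0.03) it became 0.0162 without mitochondrial genes, was called at -0.46 (adjusted p = 0.0156) with the GC trend removed and at -0.37 (adjusted p = 0.00628) without the 2 libraries as well, and ranged between -0.25 and 0.20 with single libraries left out. It became 0.0688 in PF9363 against CBP300 with quantile scaling. In CBP300 against CT (0.50) it became -0.21 with quantile scaling, -0.22 with the GC trend removed and -0.28 without the 2 libraries as well. Of the CD274 values that turned sign, -0.50, -0.39 and -0.46 in OSM against CT were called (adjusted p = 0.0056, 0.0341 and 0.00143). Those of 0.35 in PF9363 against OSM (adjusted p = 0.0332) and -0.28 in CBP300 against CT (adjusted p = 0.0148) were also called. With the GC trend removed, NECTIN2 became 0.33 in OSM against CT (0.19 without the 2 libraries as well), -0.0646 in PF9363 against OSM, 0.12 in CBP300 against OSM (0.12), -0.18 in PF9363 against CBP300 (-0.0747), 0.27 in PF9363 against CT (0.24) and 0.45 in CBP300 against CT (0.31). With single libraries left out, NECTIN2 in PF9363 against OSM ranged between -0.0379 and 0.0423. CD276 became 0.45 in CBP300 against CT with the GC trend removed (0.34 without the 2 libraries as well), and 0.0127 and 0.0333 in PF9363 against CBP300 with median-of-ratios and quantile scaling. PDCD1LG2 in OSM against CT became -0.0401 with quantile scaling, and PVR in CBP300 against CT became -0.11 with median-of-ratios scaling.

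Libraries of different groups shared replicate numbers, and the labels state no pairing. Correlations of the deviations of libraries with the same number lay between -0.48 and 0.24, and no comparison had all 3 over 0.1. Between 0 and 4 of 6 libraries correlated best with their own number, 4 in PF9363 against OSM and in PF9363 against CBP300. With 3 libraries a group, these values cannot decide whether the libraries were paired. The replicate block ended the calls of PDCD1LG2 in OSM against CT (adjusted p = 0.0741), CD47 in PF9363 against OSM (0.0501) and NECTIN2 in CBP300 against OSM (0.0642) in the limma fit. Over all genes, the block called 1763 higher and 5570 lower in PF9363 against OSM, beside 1901 and 5993 without it. The counts over all genes in CBP300 against OSM were 2327 higher and 2238 lower, against 6300 and 3770 with only the 2 groups in the fit and 6090 and 3686 without the 2 libraries, since the spread is pooled over all groups. LGALS9 was not tested under the filter of 5 TPM, and its CBP300 values rest on 12 to 73 reads.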
